A study of Ovis aries with 15 samples.

Results

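Genes whose transcripts were most abundant in the middle of 3 gestational stages were described in fetal sheep liver. A gene belonged to this set when its mean at gestational day (GD) 124 was at least 5 CPM (the usual depth-scaled count, a gene's count relative to its library total), when that mean was at least 1.5 times the mean of GD100 and the mean of GD144, and when its lowest GD124 library lay above the highest library of both other stages. The rule found 27 of the 31411 genes in the table. Because the genes were chosen by their measured levels in these libraries, their height at GD124 is a description and was not tested. The study sequenced poly(A) RNA from fetal liver tissue of Ovis aries at GD100, GD124 and GD144 with 4, 5 and 6 libraries. The labels give tissue and stage and name no genotype, breed or treatment. Whether each library represents its own fetus is not stated, and p-values therefore describe the scatter of libraries only, which may be technical. Sample codes use other letters in each stage, so stage and any cohort marked by those letters cannot be told apart.

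In late gestation the fetal liver serves as a blood-forming organ and as the source of plasma proteins, and it takes on the metabolic functions that are needed after birth. Hepatocytes, the main cell type, make albumin, clotting factors, carrier proteins and protease inhibitors for the plasma and handle lipids and amino acids. The 27 genes have no single function in common. By textbook role, assigned from the names alone, 3 encode plasma proteins, 4 act in lipid or branched-chain amino acid metabolism, 5 in signalling, 4 belong to membranes, junctions and scaffolds and 3 act on RNA or chromosomes. No role is described here for the other 8, of which 5 carry a LOC number in place of a symbol.

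A maximum at GD124 was rare. Of 10733 genes with a GD124 mean of at least 5 CPM, 141 had a GD124 mean 1.5 times above both other means, and 27 of these, which is 0.252% of the 10733, also had no GD124 library within the range of another stage. The same rule found 1706 genes with the peak at GD100 and 829 with the peak at GD144. Of the 10733 genes, 12.1% had their highest stage mean at GD124, against 46.1% at GD100 and 41.8% at GD144. Together the 27 genes took 0.459 to 0.799% of all counts in GD100 libraries, 0.991 to 1.22% in GD124 libraries and 0.311 to 0.459% in GD144 libraries.

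**Figure D1:**
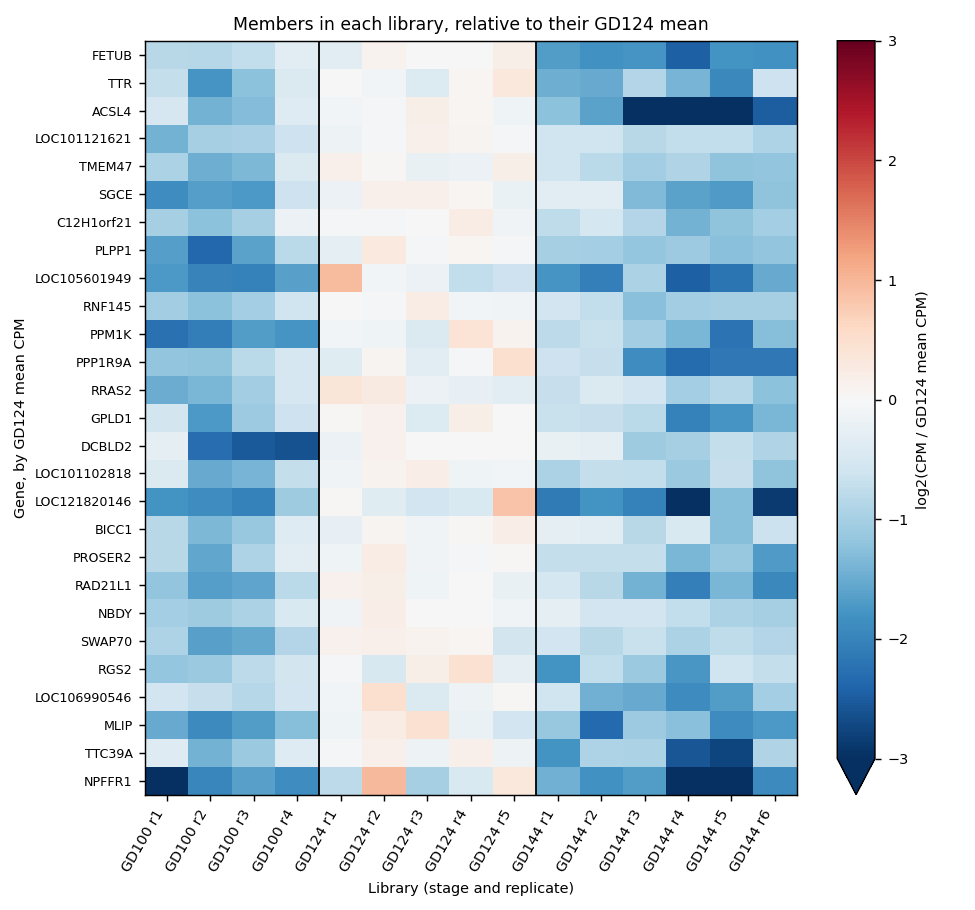
The 27 genes (rows, ordered by GD124 mean) in each of the 15 libraries (columns, r is the replicate), coloured by log2 of CPM over the gene's own GD124 mean, with values under -3 drawn as -3 and vertical lines between stages. The ratio of the GD124 mean to the higher of the other means ran from 1.52 to 4.15, with a median of 1.86, and GD100 replicate 4 is the highest GD100 library in 22 genes.

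Most members peaked modestly. The ratio of the GD124 mean to the higher of the other stage means had a median of 1.86, and 7 genes reached a ratio of 2. Just inside the limit of 1.5 lay BICC1 at a ratio of 1.519, DCBLD2 at 1.578 and NBDY at 1.591. Just outside it lay TSPYL2 at 1.495, RBMS1 at 1.468 and the plasma protein gene ITIH2 at 1.434. For the separation of libraries, the lowest GD124 library was 1.009 times the highest other library in SWAP70, 1.012 times in FETUB and 1.015 times in BICC1. TSPAN3, LOC101114226 and LOC114116172 missed that condition at ratios of 0.9937, 0.9913 and 0.9898. For the minimum level NPFFR1 at 6.274, TTC39A at 8.747 and MLIP at 10.13 CPM lay nearest inside, and LOC106990874 at 3.044, LOC105603222 at 1.11 and ALX4 at 0.8536 CPM nearest outside.

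Some libraries of the outer stages stood nearer to GD124 than others. GD100 replicate 4 was the highest GD100 library in 22 of the 27 genes (81.5%), against 21.3% of the 10733 genes, which include genes that fall from GD100. This was not particular to the 27. The plasma protein genes AHSG, ALB, RBP4 and SERPINA7 were also highest at GD100 in replicate 4. ALB held 52281 CPM there, against 17850 to 27714 CPM in the other GD100 libraries. Related genes that fell from GD100 to GD144 were mixed. ACSL6, REC8, RAD21 and PPP1R9B were lowest at GD100 in replicate 4. RNF11, RGS16 and ACSL5 were lowest in replicate 1 or 2, and ST3GAL6 and SCAP were highest in replicate 4. Over the 10733 genes replicate 4 was the lowest GD100 library in 32.5%. GD144 replicates 1 and 2 both lay above GD144 replicates 3 to 6 in 14 of the 27 (51.9%), against 14.9% of the 10733. Without GD100 replicate 4 the rule found 55 genes, the 27 among them. When GD100 was represented by replicate 1 alone it found 49, of which 21 were among the 27, while ACSL4, DCBLD2, GPLD1, TTC39A, LOC101102818 and LOC106990546 were lost. GD100 replicates 2 to 4 had a fractional count in 10.6 to 10.8% of genes, against 5.09 to 6.2% in the other 12 libraries.

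Libraries that had no part in the choice were read next. The rule was applied without 1 library at a time, and the left-out library was then inspected. Without a GD124 library the rule found 30 to 41 genes, and in 65.9 to 86.7% of them the left-out GD124 library lay above every GD100 and GD144 library. Over all genes with a GD124 mean of 5 CPM or more, 3.42 to 5.06% did so. When a GD144 library was left out, it lay below every GD124 library in 81.8 to 100.0% of the genes found, against 19.6 to 33.1% of all. For GD100 replicates 1 to 3 the shares were 85.3 to 100.0%, against 27.2 to 31.8% of all genes. GD100 replicate 4 was lowest, in place for 30 of 55 genes, or 54.5%, against 21.4% of all. GD100 replicate 4 was thus the library in which genes chosen without it were least often in place. The genes in place numbered 26 to 30 for each left-out library. Those that belong to the 27 are in place by the rule itself. The share over all genes covers genes not chosen for a peak. A higher share in the genes found is therefore a description and no test of the peak.

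**Figure D2:**
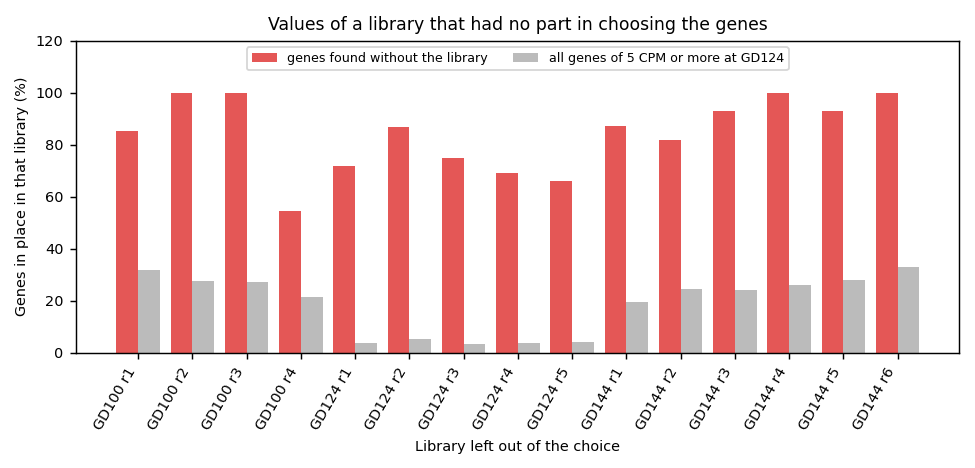
Share of genes in place in a library (vertical axis, percent) that was left out when the genes were chosen (horizontal axis), for the genes found (red) and for all genes of 5 CPM or more at GD124 (grey). In place means above all GD100 and GD144 libraries for a GD124 library, and below all GD124 libraries for the others; red bars run from 54.5 to 100.0% and grey bars from 3.42 to 33.1%.

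Markers of cell types moved over the same stages. The summed level of 13 hepatocyte markers, TTR among them, was 72800 to 194000 CPM at GD100, 234000 to 269000 CPM at GD124 and 203000 to 231000 CPM at GD144, so the sum was highest at GD124 with no overlap between stages. Of these 13 markers, however, 7 had their highest stage mean at GD124 and 6 at GD144, and the sum is carried by its most abundant genes, such as ALB and AHSG. The defining hepatocyte genes were all present. The sums of 29 erythroid markers ran from 7660 to 21400 CPM at GD100, from 3030 to 7150 CPM at GD124 and from 201 to 4130 CPM at GD144. For 42 Kupffer cell and macrophage markers they ran from 2620 to 7330, from 6890 to 8880 and from 10600 to 14200 CPM in the same order. The sums of 35 endothelial markers (732 to 1520, 776 to 1150 and 1180 to 1750 CPM) and of 47 stellate cell and matrix markers (2930 to 4160, 4320 to 5650 and 5880 to 8830 CPM) were highest at GD144. TSPO2, an erythroid marker, was the one listed marker of these types with no count in any library. The part of cell composition in the peak of the 27 genes was not tested. In bulk tissue fewer cells of a type and less RNA per cell cannot be told apart.

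The most abundant members were genes of secreted proteins. FETUB encodes fetuin-B, a cystatin-like inhibitor of metalloproteinases that the liver releases into plasma. It had 2675, 2642, 2824 and 3739 CPM in the GD100 libraries and 3783, 5089.9, 4775, 4707 and 5383 CPM in the GD124 libraries. At GD144 the lowest, median and highest values were 873, 1356 and 1479.7 CPM. The gap between GD100 replicate 4 and GD124 replicate 1 was thus 1.012-fold, while all GD144 libraries lay well below both earlier stages. TTR encodes transthyretin, which carries thyroid hormone and, bound to retinol-binding protein, retinol. It had 2126, 1019.9, 1498 and 2581 CPM at GD100, then 3548, 3324, 2629, 3672 and 4335 CPM at GD124, and 917, 1304 and 2269.7 CPM as lowest, median and highest value at GD144. GD124 replicate 3 and GD100 replicate 4 were the nearest libraries of TTR across stages. GPLD1, the plasma phospholipase D that cleaves glycosylphosphatidylinositol anchors of surface proteins, averaged 39.5 ± 13.02 CPM at GD100 (SD, n = 4), 74.8 ± 11.2 CPM at GD124 (SD, n = 5) and 34.3 ± 12.8 CPM at GD144 (SD, n = 6).

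Related plasma protein genes rose to GD124, and none of those named here fell by the test after it. The genes set beside the members here were taken for family, partnership or position once the members were known. AHSG, the gene of the sister protein fetuin-A, averaged 41128 ± 19813, 93154 ± 9792 and 65417 ± 10839 CPM at GD100, GD124 and GD144 (SD). It rose between GD100 and GD124 by log2 1.34 ± 0.31 (SE, edgeR adjusted p = 0.00426), a comparison in which 34.0% of all genes tested were called in either direction. Its later log2 change of -0.59 ± 0.27 did not pass (edgeR adjusted p = 0.12), in a comparison with 27.5% of all genes called. RBP4, the retinol-binding partner of transthyretin, averaged 967 ± 468, 2329 ± 453 and 2613 ± 262 CPM, with a rise to GD124 of log2 1.42 ± 0.30 (edgeR adjusted p = 0.00249) and a log2 difference of 0.09 ± 0.27 after it. SERPINA7, which encodes thyroxine-binding globulin, averaged 53.2 ± 22.5, 118 ± 25.1 and 118 ± 28.0 CPM, and rose to GD124 (log2 1.31 ± 0.26, edgeR adjusted p = 0.00142). ALB, another carrier of thyroid hormone, averaged 29219 ± 15991, 66886 ± 5222 and 65931 ± 7536.5 CPM, and rose likewise (log2 1.34 ± 0.34, edgeR adjusted p = 0.00647). Of the 43 tested genes of the plasma protein and coagulation list other than FETUB and TTR, 34 rose and 1 fell between GD100 and GD124, and 9 rose and 1 fell between GD124 and GD144. Over all genes tested 16.6% rose and 17.4% fell in the earlier interval, and 12.1% rose and 15.4% fell in the later one. The intervals share the GD124 libraries. The median log2 change of these genes was 1.18 in the earlier and 0.12 in the later interval, against 0.02 and -0.01 over all 16977 genes tested.

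Among metabolic genes ACSL4 had the largest ratio of the GD124 mean to the GD144 mean of all 27 genes, 5.03. It encodes a long-chain acyl-CoA synthetase that prefers arachidonate and so directs polyunsaturated fatty acids to membrane phospholipids. Its values were 421, 221, 240.1 and 453 CPM at GD100, 564, 574, 676, 616 and 539 CPM at GD124, and 37, 85.7 and 252 CPM as lowest, median and highest value at GD144. The GD144 libraries were unequal, with 252 and 194 CPM in replicates 1 and 2 and 37 to 107 CPM in replicates 3 to 6. None of the other 4 genes of this enzyme family measured here was highest at GD124. ACSL1, the main isoform of adult liver, averaged 67.0 ± 22.9, 72.7 ± 9.40 and 586 ± 316 CPM, and rose between GD124 and GD144 by log2 2.94 ± 0.36 (edgeR adjusted p = 4.21e-05). ACSL6 averaged 87.5 ± 35.1, 25.8 ± 8.25 and 5.02 ± 6.07 CPM and fell by 2.41 ± 0.54 on the log2 scale in the later interval (edgeR adjusted p = 0.00463). ACSL3 and ACSL5 passed in neither interval between neighbouring stages, at edgeR adjusted p of 0.0905 to 0.266. Over the whole span from GD100 to GD144 ACSL3 rose (log2 0.72 ± 0.17, edgeR adjusted p = 0.00175). ACSL5 fell over that span (log2 -0.66 ± 0.17, edgeR adjusted p = 0.00406).

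PLPP1 encodes a phospholipid phosphatase of the plasma membrane that removes phosphate from lysophosphatidic and phosphatidic acid. Its GD100 libraries held 43.7, 26.7, 45.2 and 78.8 CPM and its GD124 libraries 112, 169, 131, 142 and 132 CPM, while GD144 ran from 57.5 to 68.9 CPM with a median of 62.9 CPM. The lowest GD124 library was 1.43 times the highest other library, one of the widest separations in the set. Its relatives PLPP2 and PLPP3 were highest at GD144. PLPP3 averaged 38.5 ± 6.67, 65.5 ± 15.6 and 181 ± 34.7 CPM and rose in both intervals (log2 0.95 ± 0.19 and 1.38 ± 0.18, edgeR adjusted p = 0.00171 and 4.73e-05).

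RNF145 encodes a ubiquitin ligase of the endoplasmic reticulum that acts on proteins of cholesterol synthesis. It averaged 66.3 ± 12.7 CPM at GD100, 128 ± 12.5 CPM at GD124 and 67.5 ± 11.2 CPM at GD144, with 119 to 149 CPM in the GD124 libraries and 53.8 to 85.1 CPM in all others. SCAP, the gene of one of its known protein targets and the escort of the sterol regulatory factors, averaged 40.7 ± 6.91, 30.8 ± 1.65 and 28.1 ± 4.66 CPM. It did not pass between neighbouring stages (edgeR adjusted p = 0.235 and 0.246). From GD100 to GD144 SCAP fell (log2 -0.45 ± 0.14, edgeR adjusted p = 0.0121), but not without GD100 replicate 4. Of 25 tested cholesterol synthesis genes 3 rose and 2 fell between GD100 and GD124, and 1 rose and 8 fell between GD124 and GD144. Among all genes tested, 16.6% rose and 17.4% fell in the earlier interval, and 12.1% rose and 15.4% fell in the later one.

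PPM1K encodes the mitochondrial phosphatase that switches on the branched-chain keto acid dehydrogenase, the enzyme that commits leucine, isoleucine and valine to breakdown. It had 25.9, 29.0, 38.5 and 35.9 CPM at GD100, then 115, 113, 90.2, 162 and 132 CPM at GD124, and 26.3, 54.9 and 77.0 CPM as lowest, median and highest value at GD144. Subunit genes of the dehydrogenase had their highest means at GD144. BCKDHB averaged 27.7 ± 6.43, 35.5 ± 5.95 and 61.0 ± 10.1 CPM and rose in the later interval by log2 0.71 ± 0.18 (edgeR adjusted p = 0.00826). BCKDHA averaged 18.1 ± 6.16, 25.8 ± 4.57 and 34.1 ± 2.55 CPM. It rose between GD100 and GD124 by log2 0.69 ± 0.20 (edgeR adjusted p = 0.0153, and 0.0666 when scaled by total counts alone), and its later log2 difference of 0.32 ± 0.18 did not pass (edgeR adjusted p = 0.199). DBT, the gene of another subunit, averaged 40.6 ± 10.9, 55.4 ± 10.5 and 86.1 ± 17.3 CPM. It rose in the earlier interval by log2 0.61 ± 0.23 (edgeR adjusted p = 0.0473), a call lost in 11 of 17 alternatives at adjusted p up to 0.161, and its later log2 difference of 0.56 ± 0.20 did not pass (edgeR adjusted p = 0.0524). BCKDK, the kinase that opposes PPM1K, averaged 12.5 ± 3.99, 14.8 ± 1.5 and 19.8 ± 1.91 CPM. Of 48 tested genes of amino acid breakdown and the urea cycle, 23 rose and 1 fell between GD100 and GD124, and 27 rose and 2 fell between GD124 and GD144. The shares of all genes that rose and fell were 16.6% and 17.4% in the earlier interval. In the later one they were 12.1% and 15.4%.

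**Figure D3:**
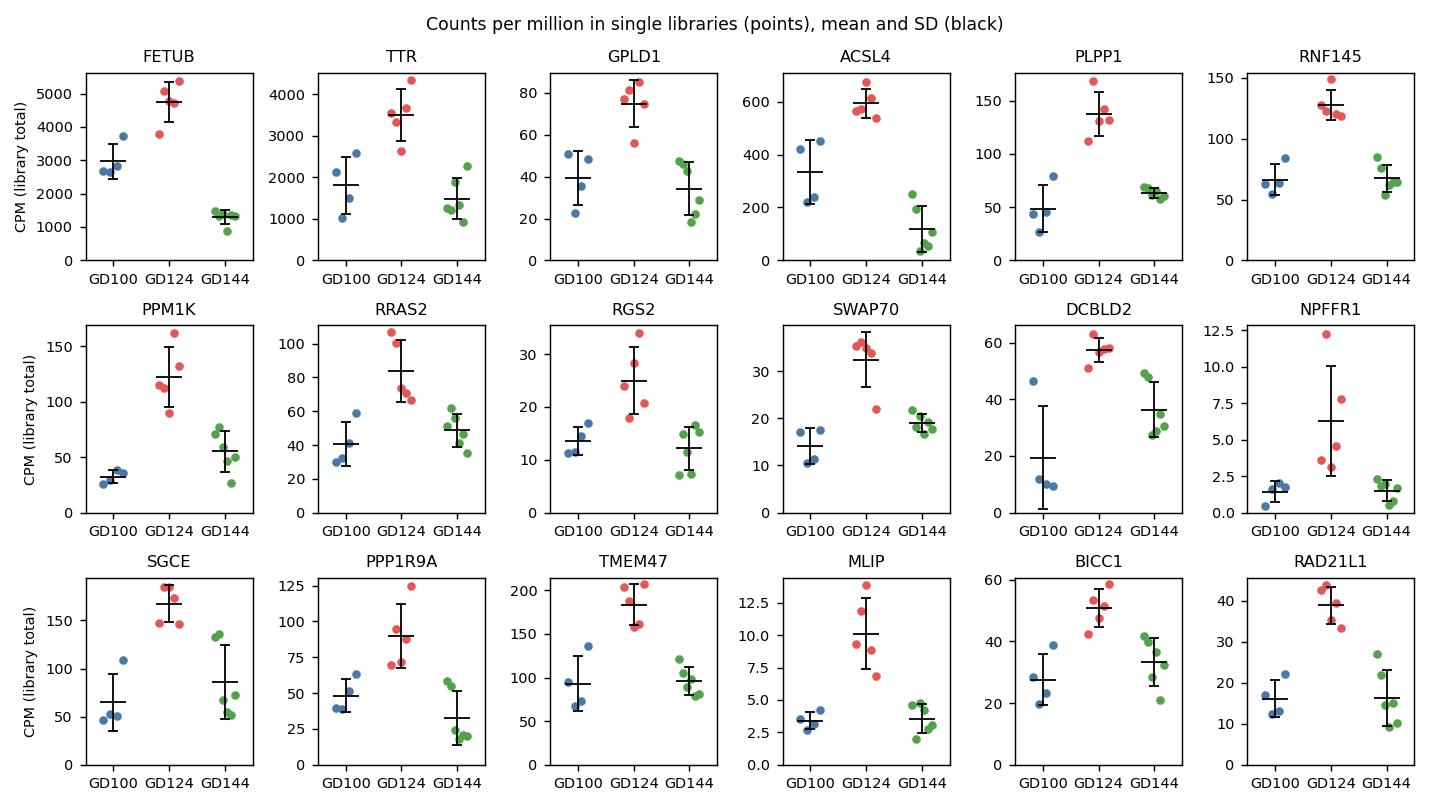
CPM (vertical axes, linear, from 0) of 18 of the 27 genes in single libraries (points), with the mean and SD of each stage in black, for GD100 (n = 4), GD124 (n = 5) and GD144 (n = 6). In each panel the lowest GD124 point is above all other points, by 1.009-fold in SWAP70 and by 1.43-fold in PLPP1 and MLIP.

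Of the 5 signalling genes, RRAS2 encodes a small GTPase of the Ras family. It had 30.0, 32.1, 40.9 and 58.8 CPM at GD100, then 107, 101, 73.8, 70.6 and 66.9 CPM at GD124, and 35.4 to 62.1 CPM at GD144. Its relative RRAS was highest at GD144 (12.7 ± 2.54, 15.04 ± 3.72 and 24.3 ± 1.66 CPM). RGS2 encodes a regulator that shortens signalling through Gq-coupled receptors. It averaged 13.6 ± 2.72, 24.98 ± 6.37 and 12.1 ± 4.11 CPM, and its highest value outside GD124, 17.0 CPM in GD100 replicate 4, lay close to the lowest GD124 value of 17.9 CPM in replicate 2. RGS5, a pericyte gene of the same family, rose in both intervals (log2 4.71 ± 0.89 and 2.68 ± 0.64, edgeR adjusted p = 0.0016 and 0.00664), and RGS16 fell in the later one by 2.39 ± 0.49 on the log2 scale (edgeR adjusted p = 0.00226).

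SWAP70 encodes an exchange factor that acts on Rac and on actin. Its GD124 libraries held 35.4, 36.1, 34.8, 33.8 and 22.0 CPM, against 10.5 to 17.6 CPM at GD100 and 16.7 to 21.8 CPM at GD144. Replicate 5 alone brought GD124 near the other stages. DCBLD2 encodes a neuropilin-like membrane receptor. Its GD124 libraries were the most even of the set, at 51.1 to 63.0 CPM, a coefficient of variation of 7.37%. At GD100 replicate 1 held 46.5 CPM and replicates 2 to 4 held 11.8, 9.93 and 9.44 CPM, so this stage was split, and GD144 ran from 27.4 to 49.1 CPM. DCBLD2 overlaps ST3GAL6 in the RefSeq annotation and had fractional counts in GD100 replicates 2 to 4 and in no other library, as had PLPP1, GPLD1 and TTC39A. Such counts were found in 14.8% of the 27 genes and in 7.19% of the 10733. ST3GAL6 itself held 129 CPM in GD100 replicate 1 and 130.3 to 154 CPM in replicates 2 to 4. NPFFR1, a G protein-coupled receptor for neuropeptide FF, had the largest ratio to the higher other stage, 4.15, at a low level. Its values were 0.42 to 2.03 CPM at GD100, 3.64, 12.3, 3.14, 4.58 and 7.76 CPM at GD124 and 0.528 to 2.32 CPM at GD144, and the coefficient of variation at GD124 was 60.5%. The lowest NPFFR1 value rests on 13 counts. NPFFR2, the related receptor, averaged 2.05 ± 1.62, 1.79 ± 0.386 and 5.53 ± 2.005 CPM.

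Another 4 genes encode membrane, junction and scaffold proteins. SGCE encodes epsilon-sarcoglycan, a membrane glycoprotein, and is imprinted in human and mouse. PPP1R9A encodes neurabin, a scaffold that joins actin to a protein phosphatase. SGCE had 46.4, 52.9, 50.7 and 109 CPM at GD100, then 147, 185, 185, 174 and 147 CPM at GD124, and 51.5, 70.1 and 136 CPM as lowest, median and highest value at GD144. PPP1R9A had 39.6, 38.9, 51.3 and 63.2 CPM at GD100, then 69.2, 94.7, 71.6, 87.9 and 125 CPM at GD124, and 18.1, 22.5 and 58.6 CPM at GD144. In both genes GD100 replicate 4 and GD144 replicates 1 and 2 were the highest libraries of their stages. The same held for GD100 replicate 4 in 22 of the 27 genes and for the GD144 replicates in 14.

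SGCE and PPP1R9A are neighbours, with 3 annotated genes between them in the ARS-UI_Ramb_v3.0 annotation, while the next closest members, RRAS2 and SWAP70, had 39 genes between them. PEG10, an imprinted gene derived from a retrotransposon, lies beside SGCE and CASD1, a sialic acid acetyltransferase gene, on its other side. CASD1 averaged 17.4 ± 3.78 CPM at GD100, 29.9 ± 2.55 CPM at GD124 and 21.9 ± 5.04 CPM at GD144. It rose by log2 0.95 ± 0.19 in the earlier interval (edgeR adjusted p = 0.00147) and fell by 0.54 ± 0.16 on the log2 scale in the later one (edgeR adjusted p = 0.0218). That fall did not pass without GD124 replicate 1, GD124 replicate 4 or GD144 replicate 4, and its adjusted p over 17 alternatives ran from 0.0166 to 0.0533. PEG10 averaged 101 ± 57.3, 363 ± 189 and 287 ± 240.5 CPM. It rose to GD124 by log2 2.03 ± 0.61 (edgeR adjusted p = 0.0192, and from 0.0106 to 0.0607 over 17 alternatives, above the threshold without GD100 replicate 3), and its later difference of -0.45 ± 0.51 did not pass. In GD144 replicates 1 and 2 PEG10 had 716 and 432 CPM, against 119.7 to 171 CPM in replicates 3 to 6. CASD1 had 28.9 and 26.4 CPM there, against 15.9 to 22.5 CPM. At GD100 CASD1 was highest in replicate 1 with 21.1 CPM and PEG10 in replicate 2 with 161 CPM, not in replicate 4. Farther along the chromosome PON3 and PDK4 were highest at GD144, with later rises of log2 1.52 ± 0.29 and 2.89 ± 0.32 (edgeR adjusted p = 0.00106 and 1.92e-05).

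**Figure D4:**
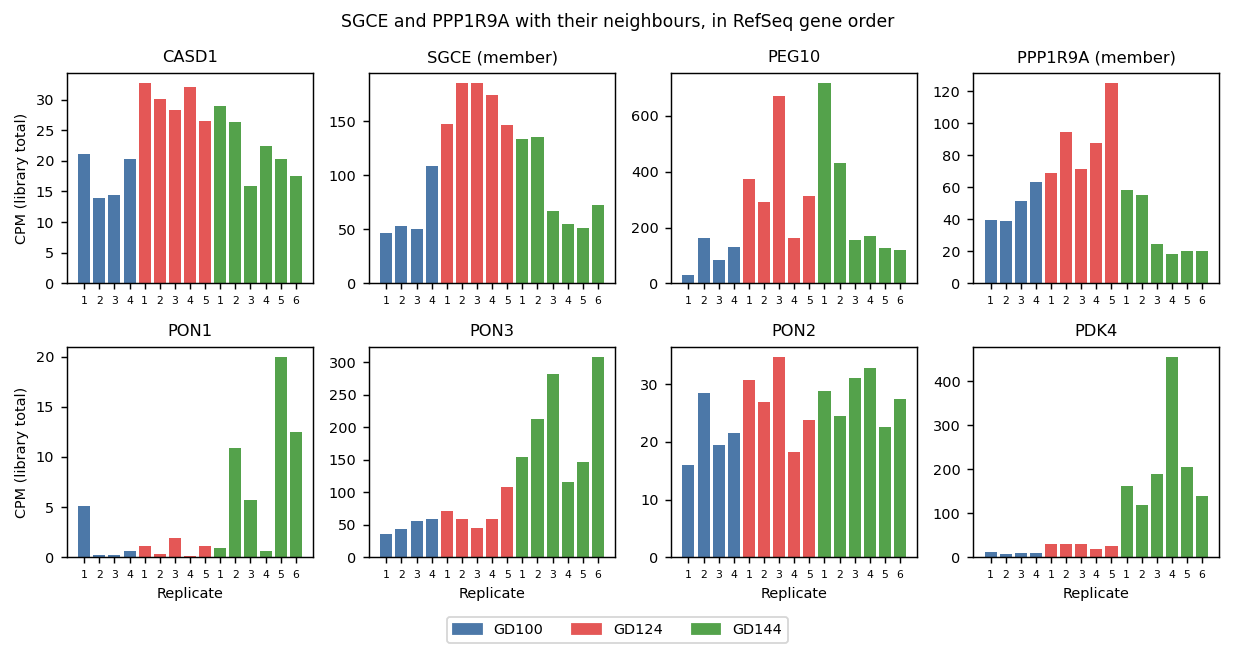
CPM (vertical axes, linear, from 0) in each library (bars, replicates in order within GD100, GD124 and GD144) of SGCE, PPP1R9A and named genes around them in RefSeq order. GD144 replicates 1 and 2 exceed replicates 3 to 6 in CASD1, SGCE, PEG10 and PPP1R9A, with 716 and 432 CPM against 119.7 to 171 CPM in PEG10.

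TMEM47 encodes a claudin-like membrane protein of cell junctions. It averaged 92.9 ± 31.6 CPM at GD100, 184 ± 23.3 CPM at GD124 and 95.7 ± 16.1 CPM at GD144, and its nearest libraries across stages were GD124 replicate 3 with 158 CPM and GD100 replicate 4 with 137 CPM. MLIP encodes a protein that binds lamin A and is best known from muscle. It held 2.69 to 4.21 CPM at GD100, 6.81 to 13.9 CPM at GD124 and 2.01 to 4.76 CPM at GD144. In MLIP the lowest GD124 library was 1.43 times the highest other library, the widest separation of the 27 genes together with PLPP1.

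Among genes that act on RNA and chromosomes, RAD21L1 encodes a cohesin subunit known from meiosis in mouse. It averaged 16.1 ± 4.48, 38.9 ± 4.56 and 16.3 ± 6.87 CPM. RAD21, the subunit used in all dividing cells, fell in both intervals (309.6 ± 121, 168 ± 27.4 and 109.8 ± 13.9 CPM, edgeR adjusted p = 0.012 and 0.00762), and the meiotic subunit gene REC8 fell likewise (10.2 ± 4.13, 1.53 ± 0.454 and 0.554 ± 0.317 CPM, edgeR adjusted p = 0.000349 and 0.00534). BICC1 encodes an RNA-binding protein that represses translation, and loss of it causes kidney cysts in mouse. It averaged 27.5 ± 8.28, 50.7 ± 6.12 and 33.4 ± 7.77 CPM, and it had the lowest ratio to a second stage in the set. NBDY encodes a small protein of the cytoplasmic bodies where mRNA is decapped. It held 17.1 to 25.8, 33.1 to 40.7 and 17.8 to 29.3 CPM.

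C12H1orf21, PROSER2 and TTC39A have symbols but no role described here. C12H1orf21 averaged 82.3 ± 29.8, 143 ± 14.1 and 74.4 ± 16.1 CPM, PROSER2 24.3 ± 8.33, 43.5 ± 4.46 and 21.6 ± 5.71 CPM, and TTC39A 5.17 ± 1.78, 8.75 ± 0.955 and 3.19 ± 1.62 CPM. Of the genes with a LOC number, LOC101121621, LOC105601949 and LOC101102818 are annotated as protein-coding and LOC121820146 and LOC106990546 as long non-coding RNA. LOC105601949 and LOC121820146 had the largest ratios after NPFFR1, 3.32 and 3.11, and uneven GD124 libraries. LOC105601949 held 249 CPM in GD124 replicate 1 and 78.5 to 122 CPM in the other GD124 libraries, against 31.8 to 41.8 CPM at GD100 and 23.7 to 67.8 CPM at GD144. LOC121820146 held 94.5 CPM in GD124 replicate 5 and 35.0 to 53.7 CPM in the others. LOC101121621 was even, with 262 to 321 CPM at GD124 and 109 to 192 CPM in all other libraries. LOC101102818 averaged 29.2 ± 10.5, 56.2 ± 5.81 and 30.3 ± 4.61 CPM. LOC106990546, which overlaps FAT1, was low at every stage, with 6.81 to 8.18, 8.99 to 17.0 and 3.31 to 8.08 CPM. In all, 13 of the 27 genes overlap another annotated gene (48.1%), against 39.3% of genes with a GD124 mean of 5 CPM or more. Since strand-specific counting is not recorded in the sources, reads of these 13 genes and of their partners may be mixed, and their values are uncertain. The partners differ in kind, and RNF145 and NPFFR1 overlap only a tRNA gene.

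The contrast of GD144 with GD100 was the one comparison of stages that the rule did not set, although the rule keeps both stages below GD124 and so limits how far they can differ. All 27 genes passed the filter on low counts. At GD144 2 genes were higher and 2 were lower than at GD100 by edgeR's quasi-likelihood test at an adjusted p under 0.05, which is 14.8% of the 27. Over all 16977 genes tested 55.0% were called, 27.1% higher and 27.9% lower. The median size of the log2 difference was 0.33 in the 27 genes and 0.70 over all genes. A gene that was not called is not thereby shown to be equal at both stages.

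FETUB fell, with 1298 ± 214 CPM at GD144 and 2970.0 ± 519 CPM at GD100 (log2 -1.10 ± 0.19, edgeR adjusted p = 0.000143), and it was lower in every GD144 library than in any GD100 library. It was the only member whose libraries did not overlap between these stages, while 23.5% of the 10733 genes did not overlap with GD144 lower and 20.5% with GD144 higher. ACSL4 fell, with 118 ± 86.8 CPM at GD144 and 334 ± 120.3 CPM at GD100 (log2 -1.45 ± 0.43, edgeR adjusted p = 0.00958), although its highest GD144 library exceeded 2 of the GD100 libraries. PPM1K rose, with 55.2 ± 18.2 CPM at GD144 and 32.3 ± 5.84 CPM at GD100 (log2 0.86 ± 0.24, edgeR adjusted p = 0.0065). SWAP70 rose, with 19.0 ± 1.88 CPM at GD144 and 14.1 ± 3.74 CPM at GD100 (log2 0.51 ± 0.19, edgeR adjusted p = 0.0318), but did not pass without GD100 replicate 2, GD100 replicate 3 or GD144 replicate 3. TTR had 1485 ± 499 CPM at GD144 and 1806 ± 687 CPM at GD100 (log2 -0.20 ± 0.30) and was not called. Of the 23 genes not called DCBLD2 had the largest difference (log2 0.96 ± 0.40, edgeR adjusted p = 0.0517), and it was called without GD100 replicate 1, the high library of its split stage, and without GD144 replicate 3 or 4. Without GD100 replicate 4 not 4 but 11 genes were called, 9 of them higher at GD144, the added ones being LOC101121621, TMEM47, SGCE, PLPP1, RRAS2, BICC1 and NBDY.

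**Figure D5:**
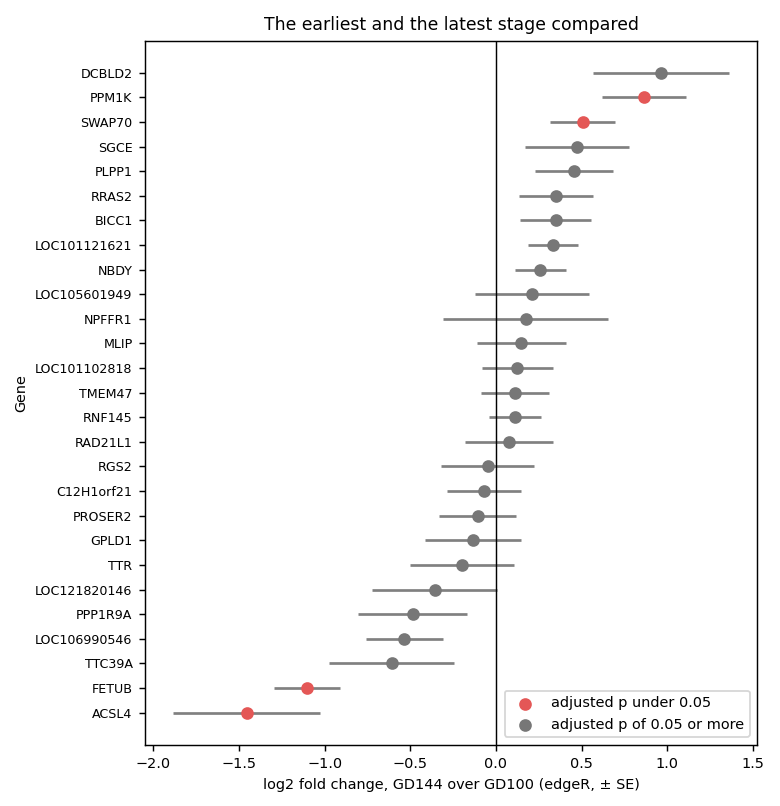
Log2 fold change of GD144 over GD100 (horizontal axis, edgeR, ± SE) for the 27 genes (vertical axis), with genes at an adjusted p under 0.05 in red. FETUB and ACSL4 lie below 0 and SWAP70 and PPM1K above it, from -1.45 to 0.86, and the other 23 genes are grey.

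The lists written for liver functions and cell types held members at about the share of all genes. Of the 1011 genes of 37 lists with a GD124 mean of 5 CPM or more, 3 were members (0.297%), against 0.252% of the 10733 genes. FETUB and TTR came from the list for plasma proteins and coagulation, and ACSL4 from that for fatty acid and triglyceride synthesis. Lists differed in how many genes had their highest stage mean at GD124, which 12.1% of all genes had. The share was above 25% in 5 of the 36 lists with a gene at this level. These were the lists for granulocytes and mast cells (3 of 5 genes), N-glycosylation, the attachment of sugar chains to secreted proteins (16 of 49), plasma proteins and coagulation (13 of 45), bile acid transport (4 of 15) and lipoprotein assembly and uptake (6 of 23). It was 0 in 6 lists, those for proliferation (43 genes), the proteasome and ubiquitin (35), fatty acid oxidation and ketone bodies (31), endothelium (29), glycolysis (19) and megakaryocytes and platelets (11). The limit of 5 CPM was set at GD124, the stage being counted. Of all 18 granulocyte and mast cell genes measured, 9 were highest at GD100, 6 at GD124 and 3 at GD144. The count for plasma proteins and coagulation includes FETUB and TTR, which were chosen for their peak. These shares describe the lists and were not tested.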

How the data were processed

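The authors deposited estimated counts of reads per gene for 15 libraries, not normalised, and DRAGEN is named in the submitters' processing notes. The version, build, annotation and strand setting behind them were not given in the sources used. Of the values 6.55% were fractional, and all were rounded. Library totals ran from 24215612 to 38247295 counts, and a floor of 3 counts is 0.0784 to 0.124 CPM, which covers counting error only. CPM uses library totals throughout, as the rule asks. Stages were compared in edgeR 4.0.16 (R 4.3.3) by quasi-likelihood F-tests from 1 robust fit to all libraries, after filterByExpr and with TMM scaling, with Benjamini-Hochberg adjustment over 16977 genes and a threshold of 0.05. Standard errors are the size of the log2 change over the square root of F. The procedure was tested on simulated data, in which it missed most 1.5-fold and 2-fold changes of GD144 against GD100.

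The members, lists and related genes were chosen with earlier results of these data known, and 3 genes and all tRNA rows were left out by the rule. Every member is named, together with the 3 genes nearest outside each limit. Names, overlaps and gene order come from RefSeq ARS-UI_Ramb_v3.0, whose symbols 28863 of the table's names matched. A planned search of promoters for motifs was not run. The alternatives were other scalings, limits and filters, DESeq2 1.42.0, a replicate block and leaving libraries out. Scalings and left-out libraries for the related genes were added after the data were seen.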

Additional observations from a re-analysis of the deposited data

Results flagged for a closer look

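In 81 groups, 27 genes at 3 stages, 8 libraries lay farther from the rest of their stage than Dixon's 95% limit allows. The rule used these same values, and the groups share the same 15 libraries. The count therefore has no chance rate to be set against, and the limit serves only to pick values for description. At GD100 replicate 4 was high in FETUB (3739 CPM, against 2642 to 2824 CPM in the others), SGCE (109 against 46.4 to 52.9 CPM) and C12H1orf21 (126 against 60.6 to 71.2 CPM). At the same stage DCBLD2 was high in replicate 1 (46.5 against 9.44 to 11.8 CPM). At GD124 C12H1orf21 was high in replicate 4 (167 against 133 to 141 CPM), LOC105601949 in replicate 1 (249 against 78.5 to 122 CPM), and SWAP70 was low in replicate 5 (22.0 against 33.8 to 36.1 CPM). At GD144 FETUB was low in replicate 4 (873 against 1338 to 1479.7 CPM).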

How the results depend on the processing

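The number of genes that met the rule moved with some of its limits, with scaling and with single libraries. A minimum of 2 CPM gave 28 genes, a minimum of 10 CPM gave 25, and a ratio only above 1 gave 40. The number was 27 as reported, 52 with TMM and 51 with RLE factors, all 27 being kept under both. TMM factors ran from 0.916 to 0.989 at GD124, from 1.016 to 1.168 at GD100 and from 0.911 to 1.068 at GD144. It was 7 at a ratio of 2, 141 with no condition on single libraries, 49 when replicate 1 alone stood for GD100, and 27 to 55 when 1 library was left out, with 55 without GD100 replicate 4 and 41 without GD124 replicate 5. BICC1 was lost without GD124 replicate 2, GD124 replicate 5, GD144 replicate 3 or GD144 replicate 5.

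For GD144 against GD100 the 27 genes gave 1 to 9 higher and 2 to 3 lower calls when 1 library was left out, with 9 higher without GD100 replicate 4 and 1 higher without GD100 replicate 2 or 3. With GD100 replicate 1 alone in its stage, assumed to vary like the others, 1 gene was lower and 2, LOC101121621 and PLPP1, were higher. ACSL4 (log2 -1.82, adjusted p = 0.0543), PPM1K (log2 1.13, adjusted p = 0.0694) and SWAP70 (log2 0.20, adjusted p = 0.541) were then not called, by edgeR. FETUB was called in every alternative run. DESeq2 called 6 of the 27 genes, the 4 called by edgeR with DCBLD2 and LOC106990546. Fitted with the replicate number as a block the same 6 were called, but the deviations of equally numbered libraries correlated from -0.114 to 0.144, so the numbers are not taken to pair samples. Scaling by total counts moved the median log2 difference of all genes to -0.07, against 0.03 with TMM. No call of a related gene changed direction under the alternatives run.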
